A study of Mus musculus with 8 samples.

Results

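Transcript levels of 10 genes of cell-to-matrix adhesion were compared between colon epithelium of wild type mice and of mice heterozygous for a Pim1 allele. The 10 genes were listed by name, with earlier results of these data known. They were the matrix protein genes Fn1 and Fbln1 and the hyaluronan receptor gene Cd44. With them were the integrin subunit genes Itgav, Itga3, Itga5, Itga6, Itgb1, Itgb4 and Itgb6. Each of the 10 was found once among the 55487 genes of the deposited table. There were 8 libraries of colonic intestinal epithelial cells on the C57BL/6J strain, 4 with the genotype wild type (WT) and 4 with the genotype PIM1+/-, with no treatment, age or sex used here. PIM1+/- denotes one altered copy of Pim1, a serine/threonine kinase gene, whose alteration is not described in the labels, and nothing in them restricts it to the epithelium. Values are TPM, the length-scaled share of a transcript in its library, which divides reads by gene length so that levels of different genes can be compared. Pim1 itself did not separate the genotypes (5.72 to 8.83 TPM in WT, 5.64 to 7.97 TPM in PIM1+/-, log2 fold change -0.19 ± 0.15, limma adjusted p = 0.411), so every library below is named as labelled.

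Integrins are receptors made of an alpha and a beta chain that tie the cytoskeleton to the extracellular matrix. Fibronectin is bound by the dimers of Itga5 with Itgb1 and of Itgav with Itgb1 or Itgb6, and laminin of the basement membrane by those of Itga3 and Itga6. Itga6 also joins Itgb4, the receptor at the core of hemidesmosomes, the anchors of epithelial cells to the basement membrane. Fibulin-1 is a matrix glycoprotein that binds fibronectin. In the gut, Cd44 is known as a hyaluronan receptor of crypt cells and a target of Wnt signalling.

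The site in fibronectin that these receptors read is shown because Fn1 had the largest fold difference of the 10 genes. It is the arginine, glycine and aspartate motif, whose codons are in capitals below with 24 bases on each side, from the GENCODE release M21 transcripts. The stretch lies within 1 coding exon at chr1:71606722-71606778 on the minus strand of GRCm38. It was carried by 7 annotated protein-coding transcripts that begin with a start codon. A further run encoding the same 3 amino acids with other codons for arginine and glycine, in 5 of the transcripts, is not shown.
Fn1 RGD site: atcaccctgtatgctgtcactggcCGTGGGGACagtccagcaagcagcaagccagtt

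Levels and differences by genotype are drawn in the plot of TPM by library. Of the 10 genes 6 rose in PIM1+/- libraries, and none fell, at a limma adjusted p under 0.05 (Fn1, Fbln1, Cd44, Itga6, Itgb1 and Itgb6). Among all 12760 tested genes 8.93% passed as higher and 8.54% as lower, that is 1139 and 1090 genes, against 925 and 1521 with upper quartile scaling and 857 and 1565 after rescaling without mitochondrial genes. A tested gene had at least 1 TPM in at least 4 libraries. Fn1 and Fbln1 met that filter only through the PIM1+/- libraries, and 4 of the other 8 genes rose. All 4 PIM1+/- libraries lay above all 4 WT libraries for 7 of the 10 genes, against 11.9% of the genes tested, and below them for none, against 11.6%. The median log2 fold change of the 10 genes was 0.37, beside -0.01 for all tested genes. That median and the 7 of 10 include Fn1 and Fbln1, which met the filter only through PIM1+/-. The 10 genes and the lists below were chosen with earlier results of these data known. Their counts beside the shares over all tested genes are therefore no test of a set. Log2 fold changes are PIM1+/- over WT on the log2(TPM + 1) scale with their SE, which understates differences of genes with low values, and means are given with their SD over n = 4 libraries. Where 4 values are given for a genotype, they follow the order of replicates 1 to 4.

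**Figure D1:**
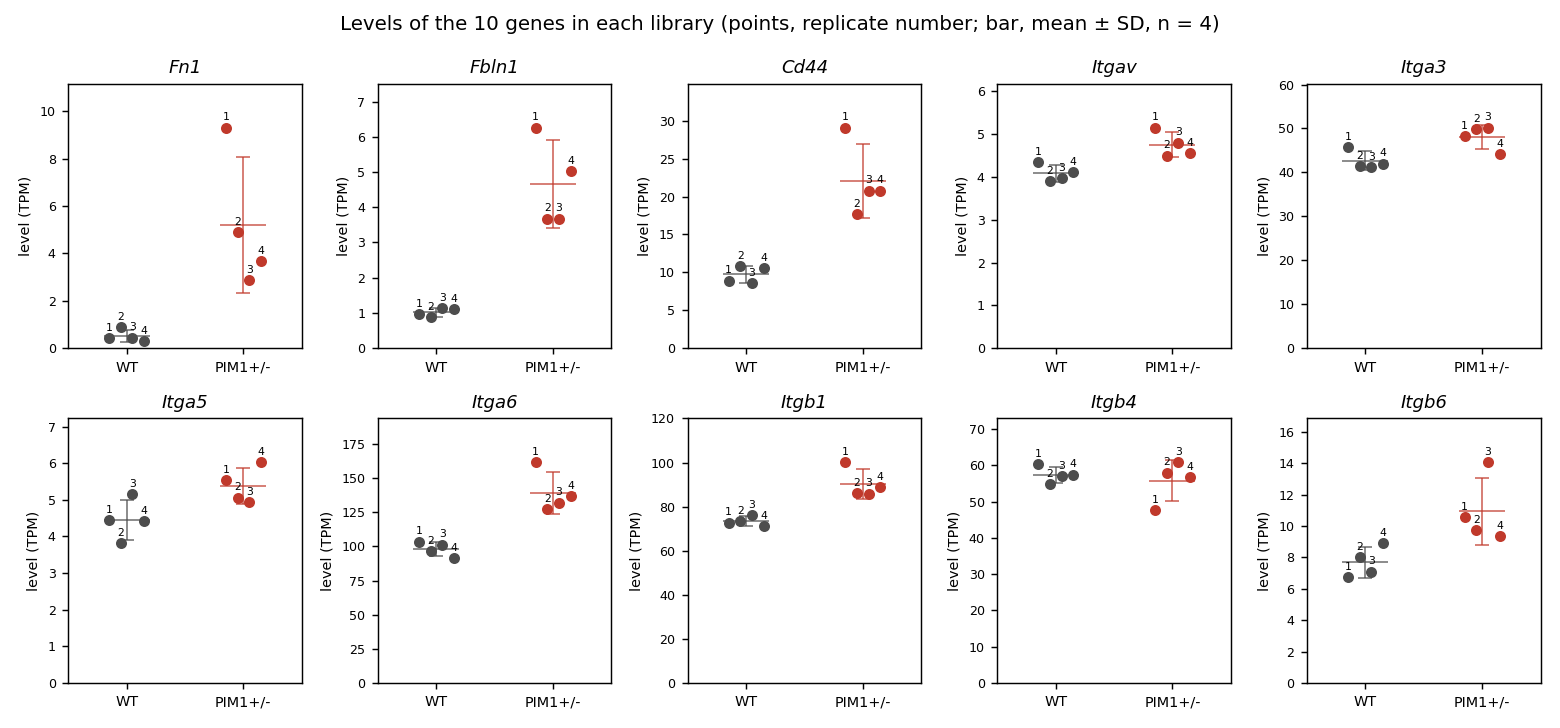
Level of each of the 10 genes in TPM (y axis, from 0) in the 4 WT (grey) and 4 PIM1+/- (red) libraries. Points carry the replicate number, and bars are the mean ± SD. The genotypes do not overlap for Fn1, Fbln1, Cd44, Itgav, Itga6, Itgb1 and Itgb6, and PIM1+/- replicate 1 is the highest library for 6 genes.

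The matrix genes were low in WT and higher in PIM1+/-. Fn1 (ENSMUSG00000026193, chromosome 1, 71585520 to 71653200, GRCm38), which encodes fibronectin, measured 0.42, 0.90, 0.44 and 0.30 TPM in WT, against 9.31, 4.89, 2.87 and 3.67 TPM in PIM1+/-. Every PIM1+/- library was above every WT library, and replicate 1 stood highest. The mean went from 0.515 ± 0.264 to 5.19 ± 2.87 TPM, a ratio of means of 10.1, and the log2 fold change was 1.94 ± 0.28 (limma adjusted p = 0.00251, exact permutation p = 0.0286, two-sided, the smallest that 4 against 4 libraries allow). It was 1.66 ± 0.19 without PIM1+/- replicate 1 (adjusted p = 0.00139) and 3.05 with a pseudocount of 0.1.

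Fbln1, the fibulin-1 gene (ENSMUSG00000006369, chromosome 15, 85205949 to 85286535), measured 0.97, 0.87, 1.14 and 1.11 TPM in WT, against 6.26, 3.68, 3.68 and 5.03 TPM in PIM1+/-. The genotypes did not overlap, and the WT libraries differed among themselves by less than 0.3 TPM. The mean went from 1.02 ± 0.126 to 4.66 ± 1.24 TPM, with a log2 fold change of 1.46 ± 0.16 (limma adjusted p = 0.000531, exact permutation p = 0.0286). It was 1.33 without PIM1+/- replicate 1.

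Both matrix genes are produced mainly by mesenchymal cells in many tissues, so markers of the other cells that an epithelial preparation can hold were read beside them. The fibroblast collagen gene Col1a1 did not exceed 0.06 TPM in any library, and the fibroblast receptor gene Pdgfra did not exceed 0.04 TPM. Dcn, a fibroblast proteoglycan gene, ranged from 0.19 to 0.27 TPM in WT and measured 1.64, 0.07, 0.52 and 0.75 TPM in PIM1+/-. The 16 fibroblast markers together summed to 6.31 to 9.31 TPM in WT and to 9.36 to 13.2 TPM in PIM1+/-, most of it Vim and Pdgfrb. These were the only members of that list that met the filter, and neither passed (Vim 0.46 ± 0.18, adjusted p = 0.117; Pdgfrb -0.06 ± 0.11, adjusted p = 0.745). Lum was at 0 in every library. Thy1, which lymphocytes carry too, ranged from 0.43 to 0.93 TPM in WT and from 0.98 to 2.90 TPM in PIM1+/-. It met the filter only after rescaling without mitochondrial genes, where it passed as higher (0.86 ± 0.24, limma adjusted p = 0.0349), and it did not pass without a filter (adjusted p = 0.0821). Col6a1, another fibroblast collagen gene, ranged from 0 to 0.04 TPM in WT and from 0.09 to 0.31 TPM in PIM1+/- (adjusted p = 0.127 without a filter).

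Most of the lymphocyte markers tested moved with the genotype, and of the macrophage markers tested only C1qa did. The 12 lymphocyte markers summed to 5.99 to 10.8 TPM in WT and 20.4 to 40.8 TPM in PIM1+/-. Of the 6 tested 5 rose, against 8.93% of all tested genes. Of these 5, Cd3e, Cd8a and Gzmb met the filter only through PIM1+/-, with at most 1 WT library at 1 TPM. The number rising was 4 without a filter and with the replicate number as a block. It was 4 to 6 when a library was left out. The other 6 lymphocyte markers lay under the filter, and none of them passed in the limma fit without one. The 10 macrophage markers summed to 2.31 to 4.83 and 7.89 to 11.4 TPM. C1qa, a complement gene of macrophages, rose by 1.76 ± 0.37 (limma adjusted p = 0.0131), and it too met the filter only through PIM1+/-. It measured 0.46, 0.49, 0.25 and 1.05 TPM in WT, against 5.19, 7.54, 5.27 and 1.22 TPM in PIM1+/-. PIM1+/- replicate 4 thus lay near WT replicate 4. The C1qa mean went from 0.56 to 4.8 TPM, a large part of the rise in the sum of macrophage markers. The other macrophage marker tested did not pass. In the limma fit without a filter C1qb and C1qc did not pass (adjusted p = 0.486 and 0.366), and Mrc1 averaged 0.42 TPM in WT and 0.36 TPM in PIM1+/-. The receptor gene Csf1r stayed at or below 0.41 TPM, and Adgre1 was at 0 in 3 WT libraries and PIM1+/- replicate 1 and reached 0.94 TPM in PIM1+/- replicate 2. The part of these cells in the levels of Fn1, Fbln1 and the genes below was not tested. In bulk RNA a change in the number of cells of a type and a change in RNA per cell cannot be told apart.

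Cd44 (ENSMUSG00000005087, chromosome 2, 102811141 to 102901665) was the receptor with the largest difference. It measured 8.91, 10.8, 8.63 and 10.6 TPM in WT, against 29.1, 17.7, 20.8 and 20.8 TPM in PIM1+/-. The lowest PIM1+/- library was above the highest WT library, and replicate 1 was again the highest. The mean went from 9.73 ± 1.12 to 22.1 ± 4.89 TPM, a ratio of means of 2.27, and the log2 fold change was 1.09 ± 0.14 (limma adjusted p = 0.0015, exact permutation p = 0.0286). Without PIM1+/- replicate 1 it was 0.95 ± 0.10. Cd44 is also carried by lymphocytes and macrophages, whose markers are given above. The values sum all transcripts of a gene, so the variant exons of Cd44 were not examined.

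Integrin alpha chains differed in level and in response. Itga6 (ENSMUSG00000027111, chromosome 2, 71745616 to 71858416), the laminin-binding chain shared by Itgb1 and Itgb4, was the most abundant of the 10 genes. Its level was 103, 96.6, 101 and 91.6 TPM in WT, against 162, 127, 132 and 137 TPM in PIM1+/-. All PIM1+/- libraries were higher, with a mean of 139 ± 15.3 against 98.2 ± 5.29 TPM and a log2 fold change of 0.50 ± 0.08 (limma adjusted p = 0.00367, exact permutation p = 0.0286).

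The other 3 alpha chains stayed short of the threshold. Itga3 (ENSMUSG00000001507, chromosome 11, 95044474 to 95076801), which pairs with Itgb1 as a laminin receptor, had a mean of 42.6 ± 2.17 TPM in WT and 48.1 ± 2.79 TPM in PIM1+/- (log2 fold change 0.17 ± 0.06, 95% interval 0.03 to 0.31, limma adjusted p = 0.0917). The genotypes overlapped, since WT replicate 1 at 45.8 TPM was above PIM1+/- replicate 4 at 44.1 TPM. Without that PIM1+/- library Itga3 passed (0.21 ± 0.06, adjusted p = 0.0496).

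The fibronectin-binding chains were about an order of magnitude lower than the laminin-binding ones. Itgav (ENSMUSG00000027087, chromosome 2, 83724397 to 83806916) measured 3.90 to 4.35 TPM in WT and 4.50 to 5.15 TPM in PIM1+/-. The genotypes did not overlap (exact permutation p = 0.0286), yet the difference was small and limma did not call it (0.18 ± 0.09, interval -0.02 to 0.37, adjusted p = 0.189). Itga5 (ENSMUSG00000000555, chromosome 15, 103344286 to 103366763), the chain of the main fibronectin receptor, measured 4.44, 3.82, 5.16 and 4.41 TPM in WT, against 5.53, 5.06, 4.94 and 6.02 TPM in PIM1+/-. WT replicate 3 lay above 2 PIM1+/- libraries, and the log2 fold change of 0.23 ± 0.10 did not pass (interval -0.01 to 0.47, adjusted p = 0.165).

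The 3 beta chains did not move alike. Itgb1 (ENSMUSG00000025809, chromosome 8, 128685654 to 128733200), the partner of most alpha chains here, measured 72.7, 73.5, 76.2 and 71.0 TPM in WT, against 100.02, 86.0, 85.8 and 89.0 TPM in PIM1+/-. The difference was 1.23-fold in the means but exceeded the spread of both groups, which did not overlap (log2 fold change 0.29 ± 0.06, limma adjusted p = 0.0113, exact permutation p = 0.0286). Itgb6 (ENSMUSG00000026971, chromosome 2, 60598292 to 60722643), the epithelial partner of Itgav that activates latent TGF-beta, measured 6.74, 8.03, 7.09 and 8.91 TPM in WT, against 10.6, 9.74, 14.1 and 9.38 TPM in PIM1+/-. The groups were separated by less than 0.5 TPM. PIM1+/- replicate 3 was the highest library at 14.1 TPM, followed by PIM1+/- replicate 1 at 10.6 TPM. Its log2 fold change was 0.45 ± 0.13 (limma adjusted p = 0.0473), and the call was lost under 12 of 15 alternatives, including the removal of any library other than PIM1+/- replicate 4.

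Itgb4 (ENSMUSG00000020758, chromosome 11, 115974709 to 116008412), the hemidesmosome chain, measured 60.3, 54.8, 57.1 and 57.5 TPM in WT, against 47.6, 58.0, 60.8 and 56.8 TPM in PIM1+/-. The groups overlapped, and the highest and the lowest of the 8 libraries were both PIM1+/-. The log2 fold change was -0.05 ± 0.08 with an interval of -0.22 to 0.13 (limma adjusted p = 0.729), and 0.028 without PIM1+/- replicate 1. That library was thus the lowest of all for Itgb4 and the highest for Fn1, Fbln1, Cd44, Itgav, Itga6 and Itgb1.

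**Figure D2:**
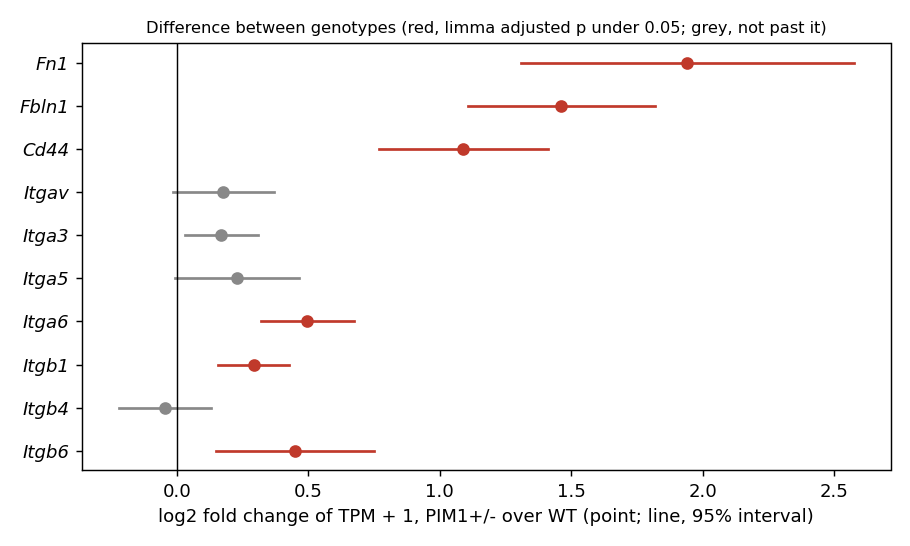
Log2 fold change of TPM + 1 (x axis, PIM1+/- over WT) for each of the 10 genes, as the limma estimate (point) with its 95% interval (line). Red marks an adjusted p under 0.05. The intervals of Fn1, Fbln1 and Cd44 lie above 0.76, and that of Itgb4 spans -0.22 to 0.13.

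Ordered by mean level in WT, the integrin chains ran Itga6, Itgb1, Itgb4, Itga3, Itgb6, Itga5 and Itgav. The WT ranges of Itga5 and Itgav overlapped, and those of the other neighbours did not. In PIM1+/- Itgb4 and Itga3 overlapped as well.

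Levels of partner chains were then compared within each library. The ratios printed are of TPM itself and do not depend on how it was scaled. Their log2 differences and tests used log2(TPM + 1) of each chain, so these do depend on it. There were 5 ratios, and 2 of them separated the genotypes. The ratio of Itga6 to Itgb4 was 1.72, 1.76, 1.78 and 1.59 in WT, against 3.40, 2.19, 2.17 and 2.40 in PIM1+/-. It was higher in all 4 PIM1+/- libraries, by 0.54 ± 0.15 on the log2 scale, and by 0.39 without PIM1+/- replicate 1. The ratio of Itgb4 to Itgb1, the chains that share Itga6, was 0.829, 0.745, 0.749 and 0.810 in WT, against 0.475, 0.674, 0.708 and 0.639 in PIM1+/-. It was lower in all 4 PIM1+/- libraries (-0.34 ± 0.13), and the difference was -0.21 without PIM1+/- replicate 1. Both had an exact permutation p of 0.0286, two-sided, and an adjusted p of 0.0714 over the 5 ratios, which does not pass. With only 2 of 5 ratios fully separated, 0.0714 is the smallest adjusted p that this number of libraries allows. That neither passed therefore says nothing of the size of the differences.

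The 3 other ratios overlapped between genotypes. Itgav to Itgb6 averaged 0.539 ± 0.0827 in WT and 0.444 ± 0.0695 in PIM1+/- (exact permutation p = 0.114, adjusted p = 0.19). Itga5 to Itgb1 averaged 0.0607 ± 0.00654 and 0.0598 ± 0.00541 (exact permutation p = 0.429, adjusted p = 0.429). Itga3 to Itgb1 averaged 0.582 ± 0.0386 and 0.535 ± 0.0537 (exact permutation p = 0.229, adjusted p = 0.286).

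**Figure D3:**
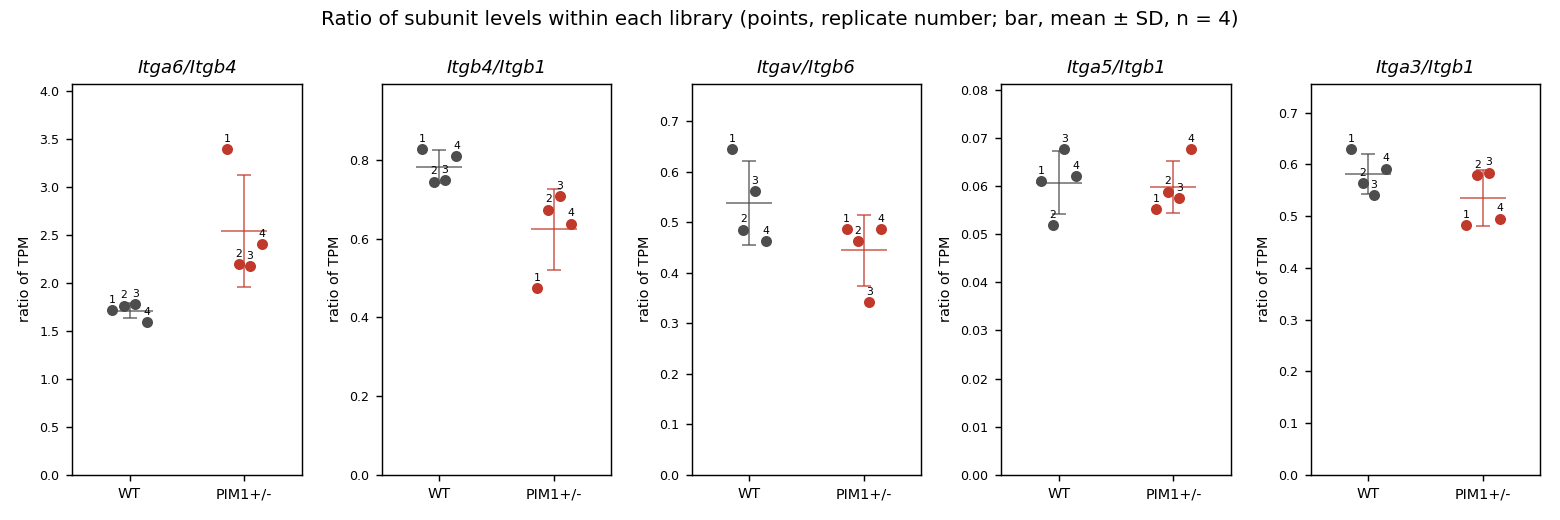
Ratio of TPM of partner integrin chains within each library (y axis, from 0), for 4 WT (grey) and 4 PIM1+/- (red) libraries with replicate numbers, and bars for the mean ± SD. The genotypes separate for Itga6/Itgb4, 1.59 to 1.78 against 2.17 to 3.40, and for Itgb4/Itgb1, 0.745 to 0.829 against 0.475 to 0.708.

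The other integrin genes were mostly low. Of 20 further subunits 7 met the filter, and 3 rose, against 8.93% of all tested genes. For 2 of the 3, Itgae and Itgb7, at most 1 WT library reached 1 TPM, so they met the filter through PIM1+/- and the count says little of the list. Itga2, the collagen-binding chain of epithelium, measured 9.40 to 10.5 TPM in WT and 14.0 to 21.2 TPM in PIM1+/- (log2 fold change 0.66 ± 0.12, limma adjusted p = 0.00708). Itgae (0.77 ± 0.17, adjusted p = 0.0154) and Itgb7 (0.59 ± 0.15, adjusted p = 0.0257) form the receptor of intraepithelial lymphocytes for E-cadherin. The lymphocyte markers Gzmb (2.04 ± 0.17), Gzma (1.92 ± 0.26), Cd8a (1.10 ± 0.24) and Cd3e (0.88 ± 0.19) rose too. Whether Itgae and Itgb7 followed these markers from library to library was not tested. The call of Itgb7 was lost when any of WT replicates 1, 2 and 4 or PIM1+/- replicates 2, 3 and 4 was left out.

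Of 22 genes of the basement membrane, which the laminin receptors bind, 9 were tested, of which 1 rose and 1 fell, near the shares over all tested genes (8.93% and 8.54%). Agrn, a heparan sulfate proteoglycan, went from 25.6 ± 1.14 to 36.5 ± 3.50 TPM (0.49 ± 0.08, limma adjusted p = 0.00333). Lama5, a laminin alpha chain of the gut basement membrane, went from 4.50 ± 1.33 to 1.31 ± 0.721 TPM (-1.27 ± 0.24, adjusted p = 0.00761), and its libraries did not overlap. In PIM1+/- 2 libraries were under 1 TPM, so it met the filter through WT. The epithelial laminin chain genes Lama3 and Lamb3 did not pass (limma adjusted p = 0.152 and 0.301), with 48.7 to 60.7 TPM of Lamb3 in WT and 47.3 to 55.6 TPM in PIM1+/-. None of 5 tested hemidesmosome and tetraspanin partners passed, the nearest being Cd9 at 465 ± 46.0 and 390 ± 25.2 TPM (-0.25 ± 0.08, adjusted p = 0.0525). It passed as lower with upper quartile scaling, after rescaling without mitochondrial genes, and without WT replicate 2 or PIM1+/- replicate 4.

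Of 17 other matrix ligands 6 were tested and 1 fell, against 8.54% of all tested genes. It was Hmcn1, a large fibulin-related matrix gene (from 5.68 ± 1.67 to 2.22 ± 0.497 TPM, -1.03 ± 0.20, limma adjusted p = 0.00808). Fbln2, Fbln5, Tnc and Vtn stayed at or below 0.23 TPM in every library, and Efemp2, a further fibulin gene, ranged from 0.41 to 1.14 TPM in WT and from 0.56 to 2.15 TPM in PIM1+/-. Thbs1 averaged 27.2 TPM in WT and 27.3 TPM in PIM1+/- (0.01 ± 0.09, adjusted p = 0.953).

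Inside the cell, integrins act through talin, kindlin and a set of adaptors. Of 20 tested adaptors 2 rose and 1 fell, near the shares over all tested genes (8.93% and 8.54%). Zyx, encoding zyxin of focal adhesions, measured 19.5 to 20.7 TPM in WT and 29.4 to 38.3 TPM in PIM1+/- (0.69 ± 0.08, limma adjusted p = 0.000982). Actn1, an actin crosslinker, rose by 0.22 ± 0.06 (adjusted p = 0.0468), and Tns2, a tensin, fell (-0.72 ± 0.20, adjusted p = 0.0344). The Actn1 call held in 4 of 15 alternatives and the Tns2 call in 8 of 15. Without WT replicate 1, WT replicate 3, WT replicate 4, PIM1+/- replicate 1 or PIM1+/- replicate 3 neither passed, and the Actn1 call was also lost without WT replicate 2 or PIM1+/- replicate 4. Talin and kindlin genes did not pass, among them Tln1 (0.13 ± 0.07, adjusted p = 0.229) and Fermt1 (-0.02 ± 0.07, adjusted p = 0.884).

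Among partners of Cd44 the largest difference was a fall. Of 13 tested 1 rose and 1 fell, near the shares over all tested genes (8.93% and 8.54%). Rdx, encoding radixin, which links the tail of Cd44 to actin, measured 8.27, 7.0, 9.17 and 6.18 TPM in WT, against 1.37, 2.31, 2.22 and 2.15 TPM in PIM1+/-. The genotypes were far apart (log2 fold change -1.52 ± 0.15, limma adjusted p = 0.000306). Its relative Ezr averaged 309 and 321 TPM (0.05 ± 0.07, adjusted p = 0.634). Mmp7, a matrix protease, rose from 0.843 ± 0.348 to 2.44 ± 0.704 TPM (0.89 ± 0.19, adjusted p = 0.0131), with 1 WT library at 1 TPM or more, so it met the filter through PIM1+/-. The splicing regulators of Cd44, Esrp1 and Esrp2, did not pass (adjusted p = 0.562 and 0.994), and the hyaluronan synthases Has1, Has2 and Has3 stayed at or below 0.25 TPM.

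**Figure D4:**
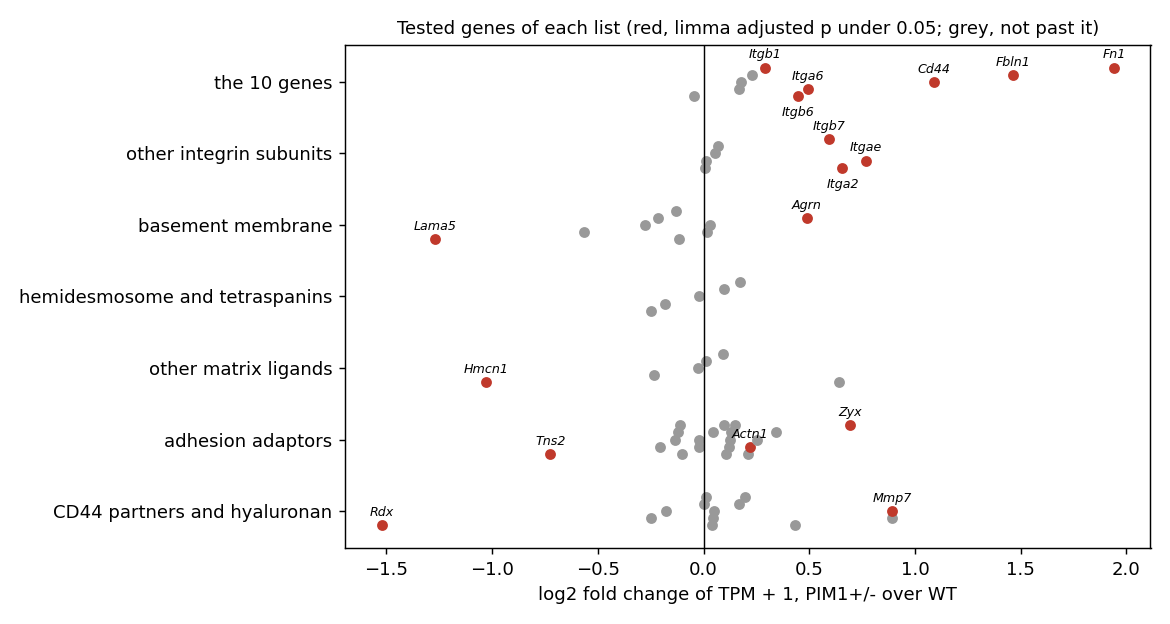
Log2 fold change of TPM + 1 (x axis, PIM1+/- over WT) of every tested gene in the 10-gene set and in 6 lists of related genes. Each point is a gene, red with its name at a limma adjusted p under 0.05 and grey otherwise. Fn1 lies furthest right at 1.94 and Rdx furthest left at -1.52.

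The stretch before the transcription start is shown for 3 of the called genes. Itgb6, also called, is not shown, and neither is a second Fbln1 start that held none of the motifs below. RefSeq windows on GRCm38.p6, from 250 bases before the start to 50 after it, were matched for 7 of the 10 genes in 10 windows. On both strands they were searched for the GC box (GGGCGG), the TEAD site (GGAATG), the AP-1 site (TGANTCA), the STAT site (TTCNNNGAA), a double IRF core (GAAA on both sides of any 2 bases) and the TATA box (TATAAA), with no overlap between matches. Printed are 280 bases each, ending 30 bases after the start, with matches in capitals. Cd44 is at chr2:102901636-102901915 on the minus strand, Fbln1 at chr15:85205758-85206037 on the plus strand and Itgb1 at chr8:128685404-128685683 on the plus strand.
Cd44: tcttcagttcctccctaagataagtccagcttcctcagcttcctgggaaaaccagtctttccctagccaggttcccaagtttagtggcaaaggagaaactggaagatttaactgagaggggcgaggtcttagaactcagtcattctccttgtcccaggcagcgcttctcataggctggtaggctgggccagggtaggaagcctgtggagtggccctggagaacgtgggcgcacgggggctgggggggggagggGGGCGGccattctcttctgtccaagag
Fbln1: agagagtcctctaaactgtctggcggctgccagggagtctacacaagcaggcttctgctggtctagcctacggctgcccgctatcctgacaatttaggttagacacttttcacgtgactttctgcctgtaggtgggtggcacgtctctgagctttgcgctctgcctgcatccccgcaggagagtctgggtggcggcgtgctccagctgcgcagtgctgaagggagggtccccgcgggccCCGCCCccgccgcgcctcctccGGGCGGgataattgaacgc
Itgb1: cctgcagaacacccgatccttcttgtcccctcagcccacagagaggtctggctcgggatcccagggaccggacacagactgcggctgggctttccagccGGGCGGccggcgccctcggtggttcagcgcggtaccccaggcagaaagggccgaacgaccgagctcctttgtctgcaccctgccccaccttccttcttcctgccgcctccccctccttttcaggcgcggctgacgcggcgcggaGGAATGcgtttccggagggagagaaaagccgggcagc

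The GC box was in 7 of the 10 windows (Cd44, Itgb1, Itgav, Itga5, both starts of Itga3 and 1 of the Fbln1 starts), among them genes with and without a call, and in 35.7% of all 32851 windows of that length. The TEAD letters were in Itgb1 alone, against 14.7% of all windows. The AP-1 letters and the IRF letters were each in 1 window of Itga3, against 7.81% and 3.44% of all. Neither the STAT letters (8.30% of all) nor the TATA box (13.6%) was in the 10 windows, and neither Itgb6 window held any of the 6 motifs. These are matches of letters, not evidence of binding.

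The tested genes whose pattern over the 8 libraries was most like that of Fn1 were Spats2l (Pearson r = 0.993), Cd55 (0.992), Nampt (0.991), Phf11a (0.991) and Sprr2a3 (0.990). Sprr2a3 shares sequence with neighbouring Sprr2a copies. These values describe the 8 libraries, which fall into 2 genotypes, so they mostly reflect how far a gene separates them. Within the set, Itgb1 (0.968), Cd44 (0.955), Itga6 (0.954) and Fbln1 (0.950) were closest to Fn1 and Itgb4 (-0.55) furthest.

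Of the defining epithelial markers, Epcam was at 1177 TPM or more and Cdh1 at 322 TPM or more in every library. Of 14 epithelial markers 7 rose and 2 fell, against 8.93% and 8.54% of all tested genes. Cdx2 (0.62 ± 0.07), Vil1 (0.36 ± 0.06), Krt20 (0.62 ± 0.12) and Krt8 (0.25 ± 0.06) had the smallest p. The 2 that fell were Cdx1 (-0.21 ± 0.06, limma adjusted p = 0.0296) and Elf3 (-0.20 ± 0.06, adjusted p = 0.0496). The number rising dropped to 3 when WT replicate 3, WT replicate 4 or PIM1+/- replicate 2 was left out, and to 4 for WT replicate 1 or PIM1+/- replicate 3, and at most 1 then fell. The number rising was also 3 without a filter, 4 with upper quartile scaling and 5 after rescaling without mitochondrial genes. The Krt8 call held in 9 of 15 alternatives. The 10 smooth muscle markers summed to 10.4 to 35.4 TPM in WT and 6.57 to 7.96 TPM in PIM1+/-, and Lmod1 alone made most of that difference. Lmod1 measured 12.3, 27.0, 0.02 and 14.1 TPM in WT and was listed at 0 in all PIM1+/- libraries. The other 9 summed to 6.66 to 10.4 TPM in WT and 6.57 to 7.96 TPM in PIM1+/-, nearly all of it Smtn in PIM1+/-. Lmod1 did not meet the filter, and it passed as lower among genes with a mean of 5 TPM or more (limma adjusted p = 0.0375) but not without a filter (adjusted p = 0.103), where Des did (-0.11 ± 0.02, adjusted p = 0.0342, at most 0.12 TPM). The 10 endothelial markers summed to 4.47 to 7.03 and 3.45 to 4.72 TPM. Only Smtn of the muscle list and 2 endothelial genes were tested, and none of the 3 passed, with Smtn at -0.09 ± 0.12 (adjusted p = 0.667) and Vwf at -0.36 ± 0.24 (adjusted p = 0.337). No read depth is kept in TPM, so the counts behind each value are unknown. Since no label ties a library to an animal of its own, the p-values cover only the variation among these 8 libraries.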

How the data were processed

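RNA of colonic epithelial cells was extracted with TRIzol, per the labels' protocols, and gene levels in TPM were computed by the authors with RSEM, per the series' design text. HISAT2, StringTie, edgeR and the build GRCm38.p6 are named in the submitters' processing notes; annotation release, strand setting and filters are not stated there. With the strand setting unknown, reads of overlapping genes cannot be told apart, though the 8 with levels here did not exceed 0.27 TPM. An antisense lincRNA within Itga6 and one within Itgb4 were not analysed here. TPM is a share of the library, so abundant transcripts shift all others.

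Genes reaching 1 TPM in 4 or more libraries (12760) entered limma 3.58.1 (R 4.3.3, trend, two-sided) as log2(TPM + 1), with Benjamini-Hochberg adjustment over all of them. Single genes and ratios of partner chains also had an exact permutation test (scipy 1.17.1). Of each list, the up to 4 called genes with the smallest p are named, or else the 1 with the smallest p; defining markers, relatives, Pdgfrb, Thy1, Col6a1, Lmod1, Des and other genes outside that rule were named after values were seen. The genes and lists were chosen with earlier results of these data known, as were the motifs. The test was checked on simulated data, drawn as independent normal values for each gene. That check does not cover correlation between genes or shifts in scale. Coordinates are from GENCODE M21. Figures used matplotlib 3.10.9. One listed gene that was tested and did not pass is not reported here, though the counts include it.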

Additional observations from a re-analysis of the deposited data

How the results depend on the processing

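Fn1, Fbln1, Cd44, Itga6 and Itgb1 kept their direction and their call under every alternative that tested them: limma without the trend, a pseudocount of 0.1, no filter, a minimum mean of 5 TPM (which left out Fn1, Fbln1, Itgav and Itga5), upper quartile scaling, rescaling without mitochondrial genes, the replicate number as a block, and leaving out each library. The number of called members ran from 4 to 7. Itgb6 lost its call without the trend (0.45, adjusted p = 0.0541), without a filter (0.45, 0.11), with upper quartile scaling (0.41, 0.0721), with rescaling (0.40, 0.0733) and with the replicate block (0.45, 0.104), and ranged from 0.33 to 0.51 when libraries were left out. Leaving out libraries gave 0.15 to 0.21 for Itga3, -0.088 to 0.028 for Itgb4, positive without PIM1+/- replicate 1, and -0.16 to 0.019 for Smtn, positive without WT replicate 3; the cause was not tested. Over all genes, 666 were lower without a filter and 689 with the replicate block, against 1090. Leaving out libraries gave 746 to 1004 higher, against 1139, and 616 to 1054 lower. Upper quartile scaling gave 925 higher and 1521 lower, and rescaling 857 and 1565, with the median of all genes at -0.05 and -0.07. Same-numbered libraries did not deviate together (correlations -0.14, 0.03, -0.03 and -0.07), so the numbers were not taken as pairs; the block also ended the calls of Itgb7, Tns2, Actn1 and Mmp7. The ratios of partner chains kept their sign in every alternative, and with a library left out they cannot reach the threshold, so only values were compared. Depth is unknown, which limits the values under 1 TPM most.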

Other observations

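Integrin chains of leukocytes lay under the filter on low values. Itgal, a chain of the lymphocyte receptor for Icam1, ranged from 0.14 to 0.27 TPM in WT and from 0.46 to 0.99 TPM in PIM1+/-. Itgax, a dendritic cell and lymphocyte chain, ranged from 0.12 to 0.31 and from 0.48 to 0.90 TPM. In the limma fit without a filter both passed (log2 fold change 0.52 ± 0.11, adjusted p = 0.038, and 0.52 ± 0.09, adjusted p = 0.0205), and their partner Itgb2 did not (0.54 ± 0.18, adjusted p = 0.132). They were the only 2 called of 13 integrin chains under the filter. Over all 26705 genes that fit called 773 higher and 666 lower. The leukocyte chains Itga4, Itgam and Itgad did not pass (limma adjusted p = 0.632, 0.402 and 0.46). Msn, the moesin gene and a relative of Rdx that is typical of leukocytes, ranged from 0.49 to 0.74 TPM in WT and from 0.97 to 1.59 TPM in PIM1+/- (0.52 ± 0.11, adjusted p = 0.0385), the opposite direction to Rdx. These genes were singled out after their values were seen.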
